A study of Mus musculus with 12 samples.

Results

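A set of 50 protein-coding genes carried many YTHDF1 peaks in the striatum of mice given cocaine and were not listed for mice given saline. The genes were chosen by their measured peak counts: a gene belonged to the set when its mean over the 3 cocaine libraries was 20 or more peaks and its Ensembl identifier was not in the saline table. Of the 1049 genes in the cocaine table, 297 reached that mean and 146 of these (49.2%) were not in the saline table, against 798 of the 1049 cocaine genes at any level (76.1%). The rule itself used this contrast, so nothing is read from either percentage. Among the 146, 53 had no symbol, 33 had a symbol of an opposite-strand, Rik or Gm transcript, and 10 were left out by name, which left 50 of the 1247 genes in either table.

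YTHDF1 is a cytoplasmic reader protein that binds N6-methyladenosine (m6A), a methyl mark placed on messenger RNAs in the nucleus, and it is thought to favour their translation. In neurons it is known for a part in learning and synaptic plasticity. The striatum receives dense dopamine input, which cocaine raises by blocking dopamine reuptake.

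The assay was CLIP-seq, in which ultraviolet light links protein to RNA, an antibody precipitates the complex and the RNA fragments are sequenced. All mice were wild-type C57BL/6J, treated with cocaine or saline, and the labels give neither dose, schedule nor age. The series holds 12 samples in 4 groups of 3: CLIP and input RNA from each treatment. The labels name the cells as primary striatal neurons, but whole frozen tissue was lysed before crosslinking. In the tables, 0 of 10 markers of striatal projection neurons (such as Drd1, Drd2 and Ppp1r1b) were listed under either treatment. Under cocaine, 0 of 6 astrocyte, 1 of 6 oligodendrocyte, 2 of 6 microglial and 1 of 5 endothelial markers were listed. Cell content is not read from so few markers. No marker of any cell type tested was in the set, although the microglial marker Cx3cr1 is among the genes left out by name. In such bulk tissue, fewer cells of a type and less RNA per cell cannot be told apart.

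The deposited values are numbers of called peaks per gene in each CLIP library, and the 3 values of a gene are given below in the order of libraries 1, 2 and 3. Input values were not analysed here, so RNA abundance is not accounted for. Listed peaks numbered 24770 to 25528 per cocaine library and 3720 to 3944 per saline library, and the number of reads behind them is unknown. The lowest mean of a listed gene was 6.33 peaks in cocaine and 1.33 in saline, and every listed saline gene had at least 1 peak in each library. The cutoff for listing a gene is not given in the sources used here. A gene missing from the saline table may have been below that lowest mean, without a peak in some library or missing for another reason. It was never set to 0. No ratio, interval or test of cocaine against saline could be given for these 50 genes. The labels do not say whether libraries came from separate animals, so each SD measures only the spread between libraries, which may be technical.

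Of the 50 genes, 4 overlapped an annotated microRNA, and for the 2 known to hold a whole hairpin on their own strand the mature sequences are shown. The reason is that the libraries were made with a small RNA kit and the tables do not separate a host gene from a hairpin within it. Myh7, the gene of a heart muscle myosin, holds the whole hairpin of Mir208b on its own strand at chr14:54975700-54975776. Ptprn2, the gene of a dense-core vesicle protein, holds that of Mir153 on its own strand at chr12:117250817-117250885. Alas2, the gene of the erythroid enzyme that starts heme synthesis, shares 29 bases with Mir3620, which lies on the other strand. Fam210a, a mitochondrial protein gene, holds the whole of Mir7219 (54 bases), but the strand of neither was available. The sequences, from RefSeq for GRCm38.p6, are written 5′ to 3′ with the seed (bases 2 to 8) in capitals, and no 2 of the 4 seeds were the same.
mmu-miR-208b-3p: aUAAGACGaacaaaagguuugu
mmu-miR-208b-5p: aAGCUUUUugcucgcguuaugu
mmu-miR-153-3p: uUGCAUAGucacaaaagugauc
mmu-miR-153-5p: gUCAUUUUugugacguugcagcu

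The peaks of Myh7 numbered 37, 14 and 24, those of Ptprn2 33, 19 and 19, and those of Alas2 35, 25 and 40. The 4 genes are 8% of the set. An annotated microRNA overlapped 22 of the 359 coding genes that were in the cocaine table only at a mean under 20 peaks (6.13%), a share near that of the set, and 0 of the 30 coding genes of the same cocaine level that were in both tables. The tables give no peak positions, so it was not tested whether any of these peaks lay on a hairpin.

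As a group the 50 genes held 1354, 1162 and 1244 peaks, a mean of 1253 ± 96.3 (SD, n = 3 libraries), or 5.30, 4.69 and 4.99% of all listed cocaine peaks. The mean per gene ran from 20 to 37.3 peaks with a median of 24, and single libraries ran from 7 to 58. A mean of 30 or more was seen in 9 genes, a mean of 25 to under 30 in 10, and a mean of 20 to under 25 in 31. Members were thus crowded at the lower end, close to the level that chose them. The upper end depends on the genes left out by name. Dnaja3, which is among them, had a cocaine mean of 68 peaks and was not listed in saline. At least 20 peaks in every library were found in 16 genes: Cenpp, Fam210a, Vasn, Ncor1, Alas2, Rph3al, Elk3, Gsdme, Srpr, Rec114, Sycp2, Dnah3, Plcg1, Gapdhs, Ulk4 and Cacna2d4. A mean of 20 or more was kept by 29 genes whichever library was left out, and the other 21 fell under it without at least 1 library. The genes lay on 19 chromosomes, with 6 on chromosome 9 and 5 on chromosome 2, and 0 pairs of them lay within 1000 kb of each other.

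**Figure D1:**
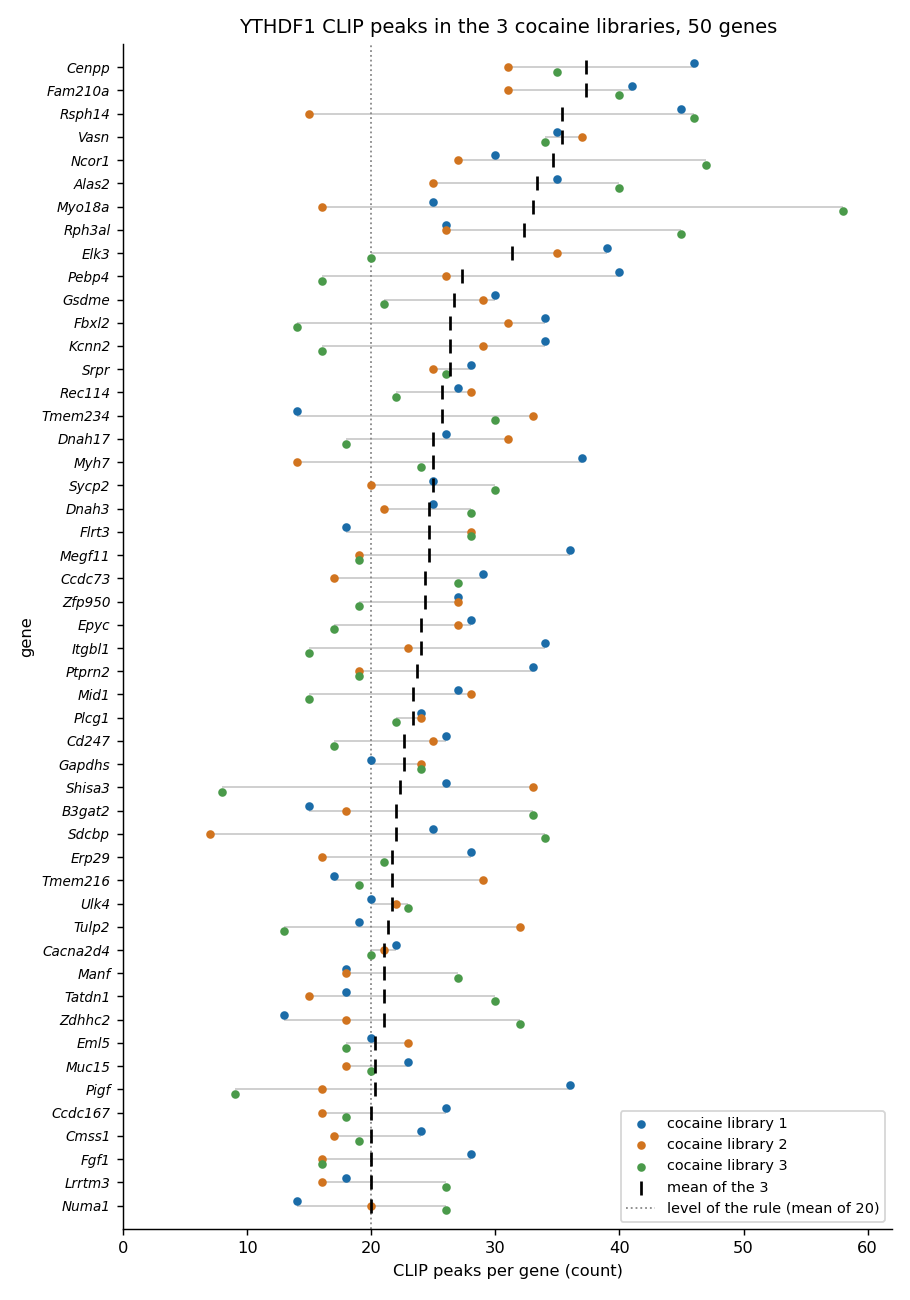
Peaks per gene (count, horizontal axis) in each of the 3 cocaine CLIP libraries (coloured points) for the 50 genes, ordered by their mean (black tick), with the rule's level of 20 as a dotted line. Means ran from 20 to 37.3 peaks, and Myo18a, Rsph14, Sdcbp, Shisa3 and Pigf show the widest spread between libraries.

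Proteins of the nucleus and of chromosomes made up 7 of the genes, with 208, 188 and 199 peaks together. Cenpp, which encodes a subunit of the protein assembly at centromeres, shared the highest mean of the set with 46, 31 and 35 peaks (37.3 ± 7.77, SD, n = 3). Ncor1 (chromosome 11, 62315663 to 62457414), the corepressor that joins nuclear receptors to histone deacetylases, had 30, 27 and 47 peaks (34.7 ± 10.8). Elk3, a transcription factor of the ETS family, had 39, 35 and 20 (31.3 ± 10.02). In Cenpp and Elk3 library 1 was highest, and in Ncor1 library 3. Rec114, which is needed for DNA breaks in meiosis, had 27, 28 and 22 peaks (25.7 ± 3.21), and the zinc finger gene Zfp950 had 27, 27 and 19 (24.3 ± 4.62). Sycp2, a gene of the meiotic synaptonemal complex, had a mean of 25 peaks, and Numa1, whose protein organises the mitotic spindle, had 14, 20 and 26 (20 ± 6.0). All 7 genes had at least 14 peaks in each library, and their coefficients of variation (SD over mean) lay between 12.5 and 31.97%.

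Cilia, molecular motors and the cytoskeleton accounted for 8 genes with 214, 181 and 224 peaks. Rsph14, a gene of the radial spokes of motile cilia, had 45, 15 and 46 peaks (35.3 ± 17.6). Its library 2 stood at less than the level of the rule and the others well above it. Myo18a, an unconventional myosin gene, had 25, 16 and 58 peaks (33 ± 22.1), so library 3 alone held 58.6% of them. The axonemal dynein heavy chain genes Dnah17 and Dnah3 had 26, 31 and 18 (25 ± 6.56) and 25, 21 and 28 (24.7 ± 3.51). These 2 genes encode motors that bend cilia and sperm tails, and their values overlapped. The 4 further genes, Myh7, Tmem216 (a protein of the ciliary base), Tulp2 and the microtubule-binding Eml5, had means of 20.3 to 25 peaks and single values of 13 to 37.

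Signalling proteins are encoded by 9 genes, with 248, 198 and 200 peaks together. Rph3al, an effector of Rab GTPases in regulated exocytosis, had 26, 26 and 45 peaks (32.3 ± 11.0). Pebp4, a phosphatidylethanolamine-binding protein gene, had 40, 26 and 16 (27.3 ± 12.1). Ptprn2 (chromosome 12, 116485695 to 117278167), a phosphatase-like protein of neuroendocrine secretory vesicles, had a mean of 23.7 ± 8.08. The libraries did not rank these genes alike: library 3 was highest in Rph3al and lowest in Pebp4. Plcg1, the phospholipase C that acts below growth factor receptors, was among the most even genes, with 24, 24 and 22 peaks (23.3 ± 1.15). Ulk4, a kinase-like gene, had 20, 22 and 23 (21.7 ± 1.53). Sdcbp, the syntenin gene, whose protein binds syndecans and takes part in exosome formation, had 25, 7 and 34 peaks (22 ± 13.7), and its 7 peaks in library 2 are the lowest single value of the set. Shisa3, which encodes a protein known to restrain Wnt and FGF signalling, had 26, 33 and 8 (22.3 ± 12.9). Fgf1, a fibroblast growth factor gene, had 28, 16 and 16 (20 ± 6.93). Cd247, the zeta chain of the T cell receptor complex, had a mean of 22.7 peaks. The genes with fewest peaks in a library were not low in the same library: Sdcbp was low in library 2 and Shisa3 in library 3.

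The 2 ion channel genes had 56, 50 and 36 peaks together. Kcnn2, a calcium-activated potassium channel gene that shapes the pause after a neuronal spike, had 34, 29 and 16 peaks (26.3 ± 9.29). Cacna2d4, an auxiliary subunit gene of voltage-gated calcium channels known from photoreceptors, had 22, 21 and 20 (21 ± 1.0). Cacna2d4 thus had nearly equal values, while Kcnn2 was low in library 3.

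Cell surface and matrix proteins made up 7 genes with 192, 168 and 159 peaks. Vasn encodes vasorin, a membrane protein that binds TGF-beta, and had 35, 37 and 34 peaks (35.3 ± 1.53), the smallest coefficient of variation of the 50 genes (4.32%). Flrt3, an adhesion and axon guidance gene, had 18, 28 and 28 (24.7 ± 5.77). Itgbl1, an integrin beta-like gene, had 34, 23 and 15 (24 ± 9.54). Vasn did not vary beyond a few peaks, while Itgbl1 ran from 15 to 34. Lrrtm3 (chromosome 10, 63928497 to 64090255), a leucine-rich repeat protein gene of excitatory synapses, had 18, 16 and 26 peaks (20 ± 5.29). The other 3 genes were Megf11, which guides the spacing of retinal neurons, Epyc, a cartilage proteoglycan, and the mucin Muc15, with means of 20.3 to 24.7 peaks.

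The secretory pathway was represented by 6 genes with 138, 111 and 148 peaks. Srpr, the receptor that docks the signal recognition particle at the endoplasmic reticulum, had 28, 25 and 26 peaks (26.3 ± 1.53). Pigf, which takes part in the synthesis of GPI anchors, had 36, 16 and 9 (20.3 ± 14.01), the largest coefficient of variation of the set (68.9%). Srpr was therefore even over the libraries, whereas library 1 held 59.02% of the Pigf peaks. The endoplasmic reticulum genes Manf and Erp29, the glucuronyltransferase gene B3gat2 and Zdhhc2, a palmitoyltransferase gene, had means of 21 to 22 peaks and single values of 13 to 33.

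Metabolism, mitochondria or cell death account for 4 genes, with 126, 109 and 125 peaks. Fam210a had 41, 31 and 40 peaks (37.3 ± 5.51), and Alas2 a mean of 33.3 ± 7.64. Gsdme, which encodes a gasdermin that forms membrane pores in dying cells, had 30, 29 and 21 (26.7 ± 4.93). Gapdhs, the sperm form of a glycolytic enzyme, had a mean of 22.7. All 4 genes had at least 20 peaks in every library, and no coefficient of variation among them was above 22.9%. The 2 ubiquitin ligase genes had 61, 59 and 29 peaks together. Fbxl2, a substrate-binding F-box protein gene, had 34, 31 and 14 (26.3 ± 10.8), and Mid1, a microtubule-bound ligase gene, had 27, 28 and 15 (23.3 ± 7.23). Both were lowest in library 3. Of the remaining 5 genes, Cmss1 had 24, 17 and 19 peaks (20 ± 3.61) and Ccdc167 had 26, 16 and 18 (20 ± 5.29). Tmem234, Ccdc73 and Tatdn1 had means of 21 to 25.7.

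The 50 genes are 4.77% of the cocaine table. Of 25 lists and symbol families, 10 held a member, and 12 of the 50 genes were in at least 1. The lists are not complete, so their counts differ from the groups by role above. The largest overlap was with cytoskeleton and motor genes, where 3 of 293 coding genes were members (Myo18a, Dnah17 and Dnah3) and 13 were in the cocaine table. That list does not hold Myh7 or Eml5. Of 48 postsynaptic and glutamate receptor genes, 5 were in the cocaine table and 1, Lrrtm3, was a member. Of 98 potassium channel genes, 6 were in the cocaine table and Kcnn2 was a member (Kcnab1 is among the genes left out by name). Cacna2d4 was the member among 37 calcium channel genes (2 in the cocaine table) and Pigf among 27 GPI anchor genes (3). Fbxl2 was the member among the 433 genes of the ubiquitin list (16), which does not hold the ligase gene Mid1. Ptprn2 was the member among 368 kinases and phosphatases (10). Zfp950 was the member among 470 zinc finger genes (4) and Itgbl1 among 266 adhesion and guidance genes (19). Fgf1 was the member among 321 genes of secreted immune and growth factors (16). Genes left out by name, which include Pigc and Rnf26, could not count as members of any list. The lists of presynaptic release (4 genes in the cocaine table), dopamine and striatal signalling (4), m6A machinery (2), immediate early genes (0) and neuronal transcription factors (2) held no member, and with so few cocaine genes nothing is read from this. Some larger lists held none either: small GTPases and their regulators (15), solute carriers (13) and G protein-coupled receptors (11). No list was tested.

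Of 84 coding genes with a name at the same cocaine level (20 to 37.3 peaks), including those left out by name, 54 (64.3%) were not in the saline table and 30 were. The saline values of these 30 describe only the genes that passed the saline cutoff. Their saline means ran from 1.67 to 26 peaks with a median of 5.33, and cocaine held a median of 4.81 times as many peaks (range 0.987 to 12). Over all listed genes a library held on average 25070 peaks in cocaine and 3818 in saline. The ratios were not scaled for this, so they do not measure a gain at these genes. Only 1 of the 30 had a saline mean under 2 peaks, and 9 had one under 5. The lowest was Kcnip4, a gene of a potassium channel partner, with 20, 23 and 17 peaks (cocaine) and 3, 1 and 1 (saline). It was followed by Notch3, a receptor gene of vessel wall cells, with 15, 25 and 24 peaks (cocaine) and 3, 2 and 3 (saline), and by the microglial receptor gene P2ry12 with 20, 18 and 24 and 3, 3 and 3. Spata16 (22, 27 and 18 in cocaine, 4, 2 and 3 in saline) and Prox2 (23, 17 and 20, and 4, 4 and 2) came next. Kcnip4 exceeded the lowest listed saline mean of 1.33 by a single peak over the 3 libraries, and the saline values of the 50 genes are unknown. On the other side of the rule's level, 4 genes missed it by a single peak over the 3 libraries: Cntd1 (21, 13 and 25), Far2 (24, 9 and 26), Gon4l (19, 19 and 21) and Usp37 (10, 30 and 19). Ift140 (22, 22 and 14) missed it by 2. Ccdc167, Cmss1, Fgf1, Lrrtm3 and Numa1 sat exactly on it.

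**Figure D2:**
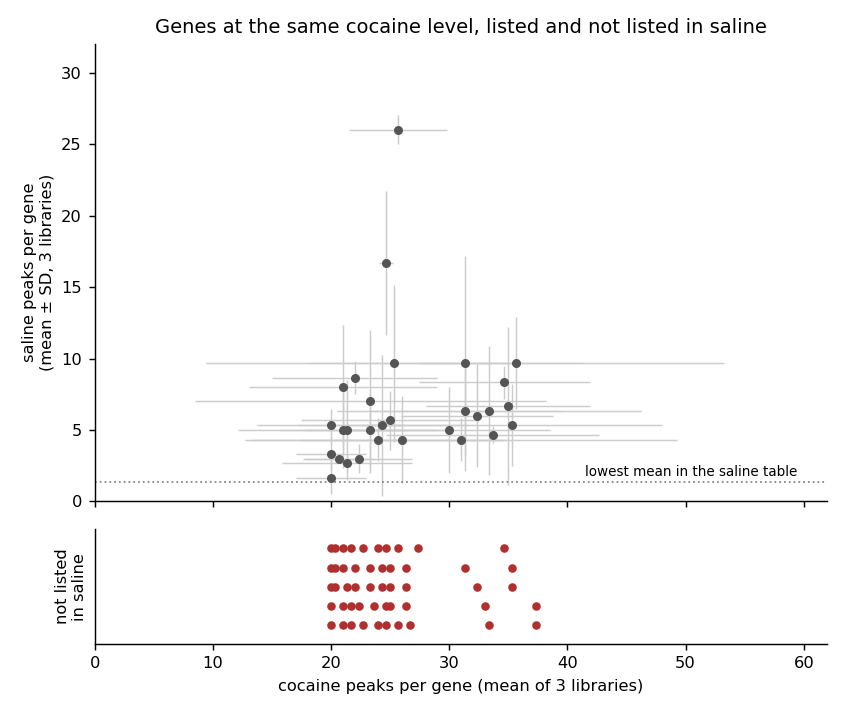
Upper panel, mean peaks per gene in cocaine (horizontal axis) and saline (vertical axis) for the 30 coding genes in both tables at the members' cocaine level, with bars of 1 SD over 3 libraries. Lower panel, cocaine means of the 50 genes not listed in saline, which have no saline value (the vertical offset only separates points); most listed genes lie between 2 and 10 saline peaks, above the lowest listed mean of 1.33.

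The median coefficient of variation was 27.1% for the 50 genes (quartiles 18.6 and 39.8%) and 27.6% for the 30 genes in both tables (quartiles 19.96 and 37.3%). For comparison, the Poisson value for counting alone had a median of 20.4% at the members' means. Above their own Poisson value lay 35 of the 50 genes and 23 of the 30. That value is not the median expected for a coefficient estimated from 3 libraries. With all genes of a set pooled and the counting variance taken off, the coefficient of variation was 27.5 and 28.5%, whereas the same step taken gene by gene gave a median of 17.3% for the 50 genes. After Vasn, the most even genes were Cacna2d4 (4.76%), Plcg1 (4.95%), Srpr (5.80%) and Ulk4 (7.05%). Their own Poisson values and that of Vasn were higher, at 16.8 to 21.8%. Whether such evenness over 3 libraries is a trait of these genes was not tested. The least even after Pigf were Myo18a (67.0%), Sdcbp (62.5%), Shisa3 (57.7%) and Rsph14 (49.9%). In 6 of the 50 genes (12%) and 4 of the 30 (13.3%) a single library held 50% or more of the peaks. Over libraries 1 and 2 alone, the median was 16.2% for the same 50 genes and 21.8% for the same 30. The other pairs went the other way. Without library 1 the medians were 28.3% for the 50 and 27.0% for the 30, and without library 2 they were 26.1 and 20.2%. Library 1 was the highest in 22 of the 50 genes, library 2 in 9, library 3 in 15, and 4 had a tie. Across the 50 genes the Spearman correlation between libraries was 0.16, -0.10 and -0.18 for the pairs 1 and 2, 1 and 3, and 2 and 3. The 50 points span less than a 2-fold range of means, which limits any such correlation, and genes are not independent replicates.

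**Figure D3:**
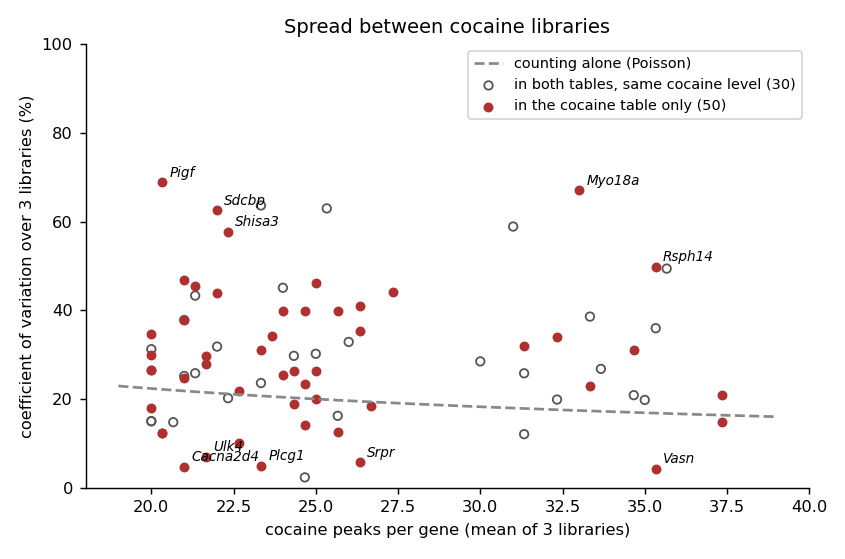
Coefficient of variation over the 3 cocaine libraries (percent, vertical axis) against mean peaks per gene for the 50 genes (filled) and the 30 genes of the same level in both tables (open), with the value that Poisson counting alone gives as a dashed line. Both sets scatter over the same range, from 4.32 to 68.9% in the 50 genes and from 2.34 to 63.6% in the 30.

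The 50 genes were 3.19 to 792 kb long in the RefSeq annotation of GRCm38.p6, with a median of 71.7 kb (quartiles 24.99 and 140 kb), and the 30 genes in both tables had a median of 78.8 kb (quartiles 36.7 and 282 kb). Across the 50 genes the Spearman correlation of length with mean peaks was 0.08, and across the 30 it was -0.08. The rule's floor of 20 peaks narrows the range of peaks and limits both correlations. Per kb of gene, the mean number of peaks ran from 0.03 in Ptprn2 to 6.59 in Manf, with medians of 0.35 and 0.38 in the 2 sets. Under 20 kb in length were 10 of the 50 genes and 4 of the 30. Manf, which encodes a stress-induced neurotrophic factor of the endoplasmic reticulum, is 3.19 kb long (chromosome 9, 106888753 to 106891938) and had 18, 18 and 27 peaks. Srpr is 5.80 kb long (chromosome 9, 35211203 to 35217003) with 4.54 peaks per kb, and Shisa3 6.11 kb (chromosome 5, 67607883 to 67613987) with 3.66. Erp29, Tmem234 and Vasn, at 7.72, 7.87 and 11.2 kb, had 2.81, 3.26 and 3.15 peaks per kb. Manf, Erp29 and Tmem234 are named here after their values were seen. At the other end, Kcnn2 (417 kb), Megf11 (329 kb), Ulk4 (322 kb), Itgbl1 (319 kb), Mid1 (306 kb) and Cmss1 (305 kb) had 0.06 to 0.08 peaks per kb. The rule by which the authors gave a peak to a gene is not given in the sources used here, so some of these peaks may lie outside the gene that they were counted for.

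**Figure D4:**
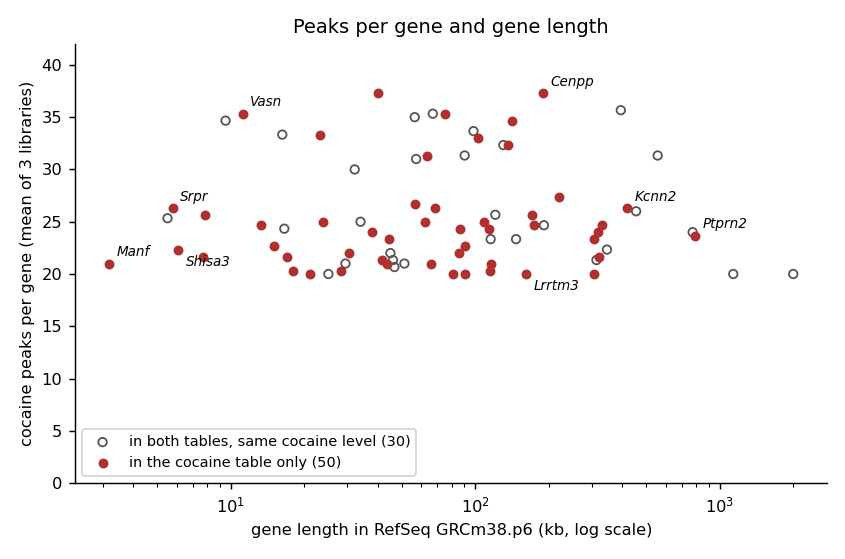
Mean cocaine peaks per gene (vertical axis) against gene length in kb (log scale) for the 50 genes (filled) and the 30 genes of the same level in both tables (open). The 50 genes lie at 20 to 37.3 peaks over lengths of 3.19 to 792 kb, with a Spearman correlation of 0.08 (-0.08 in the 30).

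Most of the 50 genes share at least 1 base with another annotated gene. An annotated gene of any class, pseudogenes included, overlapped 44 of them (88%) and a coding gene 32 (64%), against 25 (83.3%) and 16 (53.3%) of the 30 genes in both tables. Some coding overlaps were small: 24 bases for Rec114 with Nptn, 39 for Srpr with Fam118b and 82 for Ccdc73 with Eif3m. The strand of the gene and of at least 1 coding neighbour was available for 22 of the 32, and in all 22 every coding neighbour of known strand lay on the opposite strand, as it did for 11 of 11 in the other set. The small RNA kit keeps strand, but the tables hold none, and whether peak counting used it was not stated in the labels. The genes that lay wholly within a coding gene were 6: Vasn within Coro7, Flrt3 within Macrod2, Lrrtm3 within Ctnna3, Fgf1 within Arhgap26, Muc15 within Ano3 and Alas2 within Apex2 as annotated. Cenpp (chromosome 13, 49464025 to 49652950) in turn contains the whole of Ecm2, Aspn, Omd and Ogn, a row of matrix protein genes on the opposite strand.

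For 8 of the 50 genes (16%) an overlapping gene was itself listed, and for 6 (12%) it was listed in saline. Whether the saline peaks of such a neighbour lay within the shared stretch was not tested, since the tables hold no positions. The corresponding counts were 9 (30%) and 4 (13.3%) among the 30 genes in both tables, and 37 (10.3%) and 11 (3.06%) among the 359 genes in the cocaine table only at a mean under 20 peaks. Lrrtm3, with its 18, 16 and 26 peaks, lies within Ctnna3, an alpha-catenin gene with 392, 376 and 374 peaks (cocaine) and 32, 37 and 39 (saline). Plcg1 shares 5314 bases with Zhx3, a transcriptional repressor gene with 114, 99 and 64 peaks (cocaine) and 14, 5 and 20 (saline). Cmss1 shares 72.0% of its length with Filip1l, which had 65, 76 and 91 peaks (cocaine) and 41, 37 and 66 (saline). In these 3 loci the listed neighbour had more peaks than the member in every cocaine library.

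In 3 further loci the neighbour was also listed in saline, and its cocaine values overlapped those of the member or lay below them. Fgf1 (28, 16 and 16) lies within Arhgap26, which had 15, 21 and 36 peaks (cocaine) and 3, 6 and 4 (saline). Flrt3 (18, 28 and 28) lies within Macrod2, with 25, 13 and 22 in cocaine and 6, 6 and 4 in saline. Ncor1 overlaps Ttc19, a mitochondrial protein gene, with 21, 7 and 22 in cocaine and 4, 3 and 5 in saline. The remaining pairs involve neighbours that were not in the saline table either. Itgbl1 shares 4425 bases with Fgf14 (4, 12 and 6 peaks in cocaine), and Mid1 shares 3875 bases with the non-coding G530011O06Rik (9, 9 and 11). None of the 8 pairs had the same values over the 3 libraries, and the peaks of 2 overlapping genes cannot be separated from these tables.

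**Figure D5:**
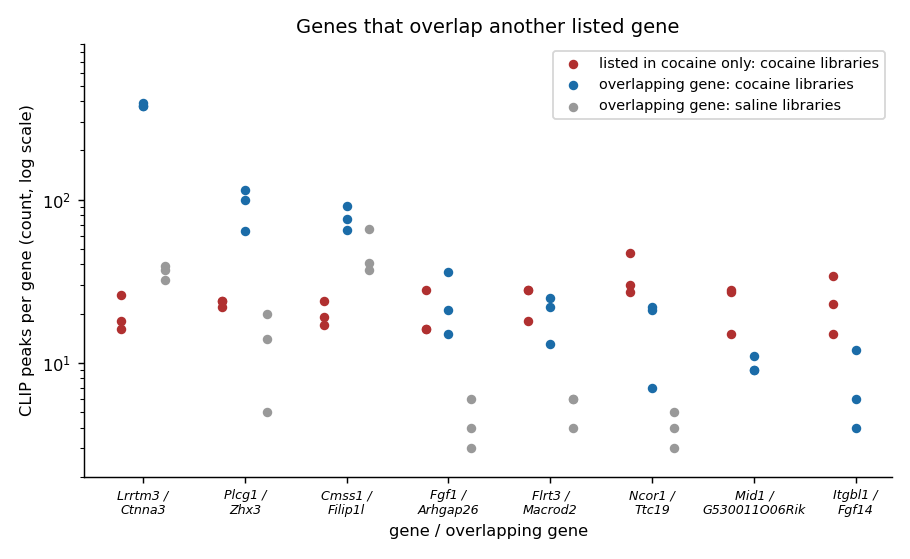
Peaks per gene (count, log scale) for the 8 genes that overlap another listed gene: the gene itself in the 3 cocaine libraries (red), the overlapping gene in the 3 cocaine (blue) and, where listed, the 3 saline libraries (grey). Ctnna3, Zhx3 and Filip1l lie above their partners in cocaine, and 6 of the 8 overlapping genes have saline values.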

How the data were processed

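A table for cocaine and a table for saline were used. Per the file headers and values, the deposited numbers are peak counts, whole numbers for each gene in 3 CLIP libraries, and a further deposited column is a signal per gene that equals the authors' mean of the 3. Cutadapt, STAR and mm10 are named in the submitters' processing notes; the table names point to CLIPper. The sources used here do not give the caller settings, the use of input or how peaks were assigned to genes. Treatment was taken from the letter c or s in a table's name, and columns carry no replicate number.

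Each Ensembl identifier was counted once (1049 and 449 genes). A gene under several symbols took its first. All 50 members matched RefSeq GRCm38.p6 (mm10) by symbol, and 36 had a strand there. Overlap means at least 1 shared base. Members, lists and comparisons were chosen with earlier results of these data known, and the grouping by role was made after the values were seen.

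Named with values are the 15 members with most peaks, the 5 most and 5 least even, the 5 on the level, those in a list and those that overlap a listed gene (33 in all), plus the 5 genes just under the level and the 5 same-level genes with fewest saline peaks; the other 17 are given mostly by ranges. No test was run, because members have no saline value. Spread and overlap functions were tested on simulated data. The software was SciPy 1.17.1, NumPy 2.4.6 and pandas 2.3.3 under Python 3.11.15. Alternatives varied the level, the libraries, the scaling, the symbol filter and the overlap.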

Additional observations from a re-analysis of the deposited data

How the results depend on the processing

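With a mean of 15 or more peaks in place of 20 there were 89 genes, all 89 coding, with a median of 20.3 peaks, a median coefficient of variation of 31.97%, a median length of 63.5 kb and 14 that overlap a listed gene. With 30 or more there were 9 genes, all 9 coding, with medians of 34.7 peaks and 31.1%, and 1 overlap. With 20 or more in every library there were 16, all 16 coding, with medians of 26.5 peaks, 14.5% and 63.1 kb, and 2 overlaps. Without the symbol filter there were 93 genes, and 51 if any symbol of a gene could pass (added after seeing the data). Leaving out a library, with the rule applied again, gave 50 to 60 genes, 7 to 12 overlaps and a median coefficient of variation of 17.2 to 31.9%; 10, 4 and 7 of the 50 genes fell under the level without library 1, 2 and 3. With counting variance taken off gene by gene, the median was 17.3%. Overlap over 50% or more of the shorter gene left 5 of the 8 genes, and overlap with any annotated gene gave 44. The depth of sequencing is unknown and sets how low a peak count can be seen. No paired analysis was possible because the columns carry no replicate numbers and no result comes from a test.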
